A study of Homo sapiens with 9 samples.

Results

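Mitosis genes are the genes of the G2 and M phases of the cell cycle, and 60 of them, taken as a named list out of 20033 protein-coding genes, were followed at their promoters by ATAC-seq, which cuts open chromatin with a transposase and reads where it was cut. The list groups genes by function, and its rule uses no measured value, although it was drawn up with earlier results of these data known. For each gene, the strongest peak that reached within 1000 bp of the transcription start site (TSS) was taken from the peak list of each library, and its fold enrichment, the ratio of the summit to its local background, was ranked within that list and is given here as a percentile, where 100 is the strongest peak of the list.

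The 9 libraries were made from MDA-MB-231, an established triple-negative breast cancer line with mesenchymal features. Cells were transduced for 24 h with lentivirus carrying a control shRNA (shCtrl, 2 libraries) or an shRNA against EZH2 (shEZH2, 2), E2F1 (shE2F1, 2) or SUZ12 (shSUZ12, 1) and then kept under puromycin (2 μg/ml) through a selection of 72 h. A further library was from cells given GSK126, an inhibitor of the EZH2 methyltransferase, and 1 was its DMSO control, whose treatment label reads WT. All groups share this 1 cell line, the labels do not say whether replicates are separate cultures, and p-values here measure only the spread between these libraries. EZH2 and SUZ12 are subunits of PRC2, which methylates histone H3 at lysine 27, and E2F1 is a transcription factor of the cell cycle. An shRNA acts on RNA, so the promoters of the targeted genes do not check a knockdown.

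Entry into mitosis is driven by CDK1 bound to B-type cyclins, after CDC25 phosphatases remove inhibitory phosphates from the kinase. Kinesins and the kinetochore then attach chromosomes to the spindle, the spindle checkpoint holds the anaphase-promoting complex in check until attachment is complete, and CDC20 activates that complex to release the sister chromatids. Many of these genes are silent in G1 and transcribed late in the cycle through promoters with CCAAT boxes, bound by NF-Y, and a cell cycle homology region (CHR), where the DREAM complex represses in quiescent and G1 cells and MuvB with B-MYB and FOXM1 activates in G2.

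The letters of these elements were looked for in RefSeq promoter windows (GRCh38.p14), from 250 bases before to 50 after the start, for the 52 genes that matched. AURKA, BIRC5, BUB3, TTK, UBE2C, CENPH, KNL1 and TPX2 did not match. A CHR was counted where the letters TTTGAA stood, or where the variant form TTCGAA stood. The CCAAT box was searched by its name. The E2F site was searched as TTTCCCGC, as TTTCGCGC, as TTTGCCGC and as TTTGGCGC. Both strands were read, and matches of different elements may share bases. The windows below are shown because they lie in promoters whose values are described later. They read in the direction of the gene, with the motif in capitals, in some as its reverse complement, and all lie upstream of the TSS. The first set holds a CHR.
CDC20 (chr1:43358904-43358933, plus strand): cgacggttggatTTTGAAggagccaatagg
PLK1 (chr16:23678848-23678877, plus strand): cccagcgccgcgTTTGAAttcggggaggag
CDC25C (chr5:138331817-138331846, minus strand): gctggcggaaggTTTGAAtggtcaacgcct
CDC25B (chr20:3796260-3796289, plus strand): ctgctgttatttTTCGAAtatataaggagg
KIF23 (chr15:69414282-69414311, plus strand): ctgattggcccgTTTGAAatgcgccaggcg
BUB1B (chr15:40161034-40161063, plus strand): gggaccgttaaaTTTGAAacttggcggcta
SMC4 (chr3:160399563-160399592, plus strand): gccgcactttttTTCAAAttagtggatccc
The second set holds a CCAAT box.
CCNB1 (chr5:69167083-69167112, plus strand): gccacgaacaggCCAATaaggagggagcag
PLK1 (chr16:23678804-23678833, plus strand): aaatccccgcggCCAATcagtggcgcgcag
KIF20B (chr10:89701480-89701509, plus strand): acccgcccccatATTGGagagcttcttccg
KIF20A (chr5:138179033-138179062, plus strand): cttccctatctgATTGGccgaacgaacgca

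A CHR was found in 40 of the 52 windows (76.9%), against 12.9% of 14962 promoter windows of all genes. A CCAAT box was found in 41 (78.8%, all genes 36.8%), 2 or more of them in 25 (48.1%, all genes 13.0%), and both elements in 31 (59.6%, all genes 5.46%). Only 4 windows held one of the E2F words (7.69%, all genes 4.64%). The letters of the late cell cycle elements thus stood in most mitosis promoters, and the E2F words in few. The E2F words are longer than those of the other elements, so each share compares only with that of all genes. In a second list of 50 mitosis genes that are no members, 39 matched, and 66.7% of their windows held a CHR, 69.2% a CCAAT box and 15.4% an E2F word. The median GC content of the members' windows was 61.2%, close to the 64.0% of all windows. A match describes the letters only and is not evidence that a factor binds there.

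Every one of the 60 genes had a promoter peak in all 9 libraries, as did 12026 of the 20033 protein-coding promoters. The −log10 q of these peaks ran from 15.7 to 284. The 9 strongest peaks formed 1 region at each of the 60 promoters and spanned the TSS in all libraries at 58 of them. Their summits lay upstream of the TSS in 58 genes and within 250 bp of it in 53. The others were UBE2S, KNL1, NCAPH, SMC2, SMC4, CDCA3 and NCAPD2, the last 2 each with the TSS of another gene (USP5 and MRPL51) on the opposite strand within 1000 bp, where the median summit was at −749 and −789 bp from the TSS. Such an opposite TSS was present at 13 members (21.7%), among them AURKA (CSTF1), CENPK (PPWD1), NDC80 (METTL4), KIF20A (BRD8), HMMR (NUDCD2) and SMC4 (IFT80), against 10.0% of all genes, and there a peak cannot be assigned to 1 gene of the pair.

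**Figure D1:**
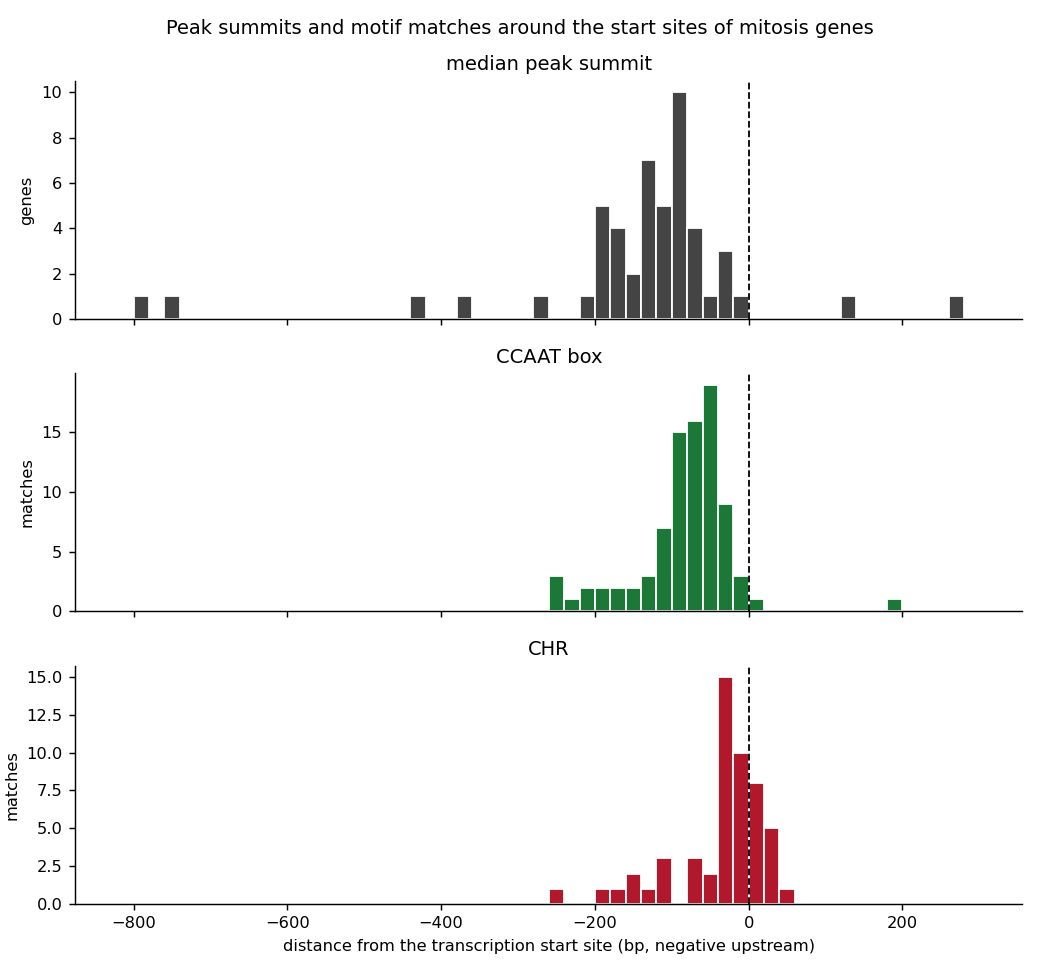
Distance from the TSS (bp, negative upstream) of the median peak summit of each of the 52 matched genes (top, number of genes), and of the first base of each CCAAT (middle) and CHR match (bottom, number of matches), in steps of 20 bp. CCAAT boxes upstream of the TSS have a median position of −73.5 and CHR matches of −30.0, with most summits further upstream.

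The positions of these elements were set beside the summits. Upstream of the TSS, 84 CCAAT boxes in 40 members had a median position of −73.5 bp and a median distance of 58.5 bp from the summit, with 36 of them within 50 bp of it. The 39 upstream CHR matches in 31 members had a median position of −30.0 bp. Their median distance from the summit was 102 bp, with 12 of them within 50 bp of it. These positions depend on the window searched, which ends 250 bases upstream. They were not taken over all promoters, so nearness to the summit is not shown as a trait of these genes.

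Mitosis promoters were among the more open promoters. The median over members of their percentile over the 9 libraries was 90.2, against 78.5 over all promoters with a peak in all 9, and 32 members reached 90 or more (26.4% of all such promoters did) and 50 reached 75 (55.6% of all). Ranked among promoter peaks only, the medians were 79.0 and 62.3, and by the −log10 p of the peaks 93.8 and 87.1. The range over the 9 libraries had a median of 13.6 percentile points over members and 20.1 over all promoters. A percentile has a ceiling, so peaks near the top of a list have less room to move. In these bulk samples, a promoter open in fewer cells and a promoter less open in every cell cannot be told apart.

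**Figure D2:**
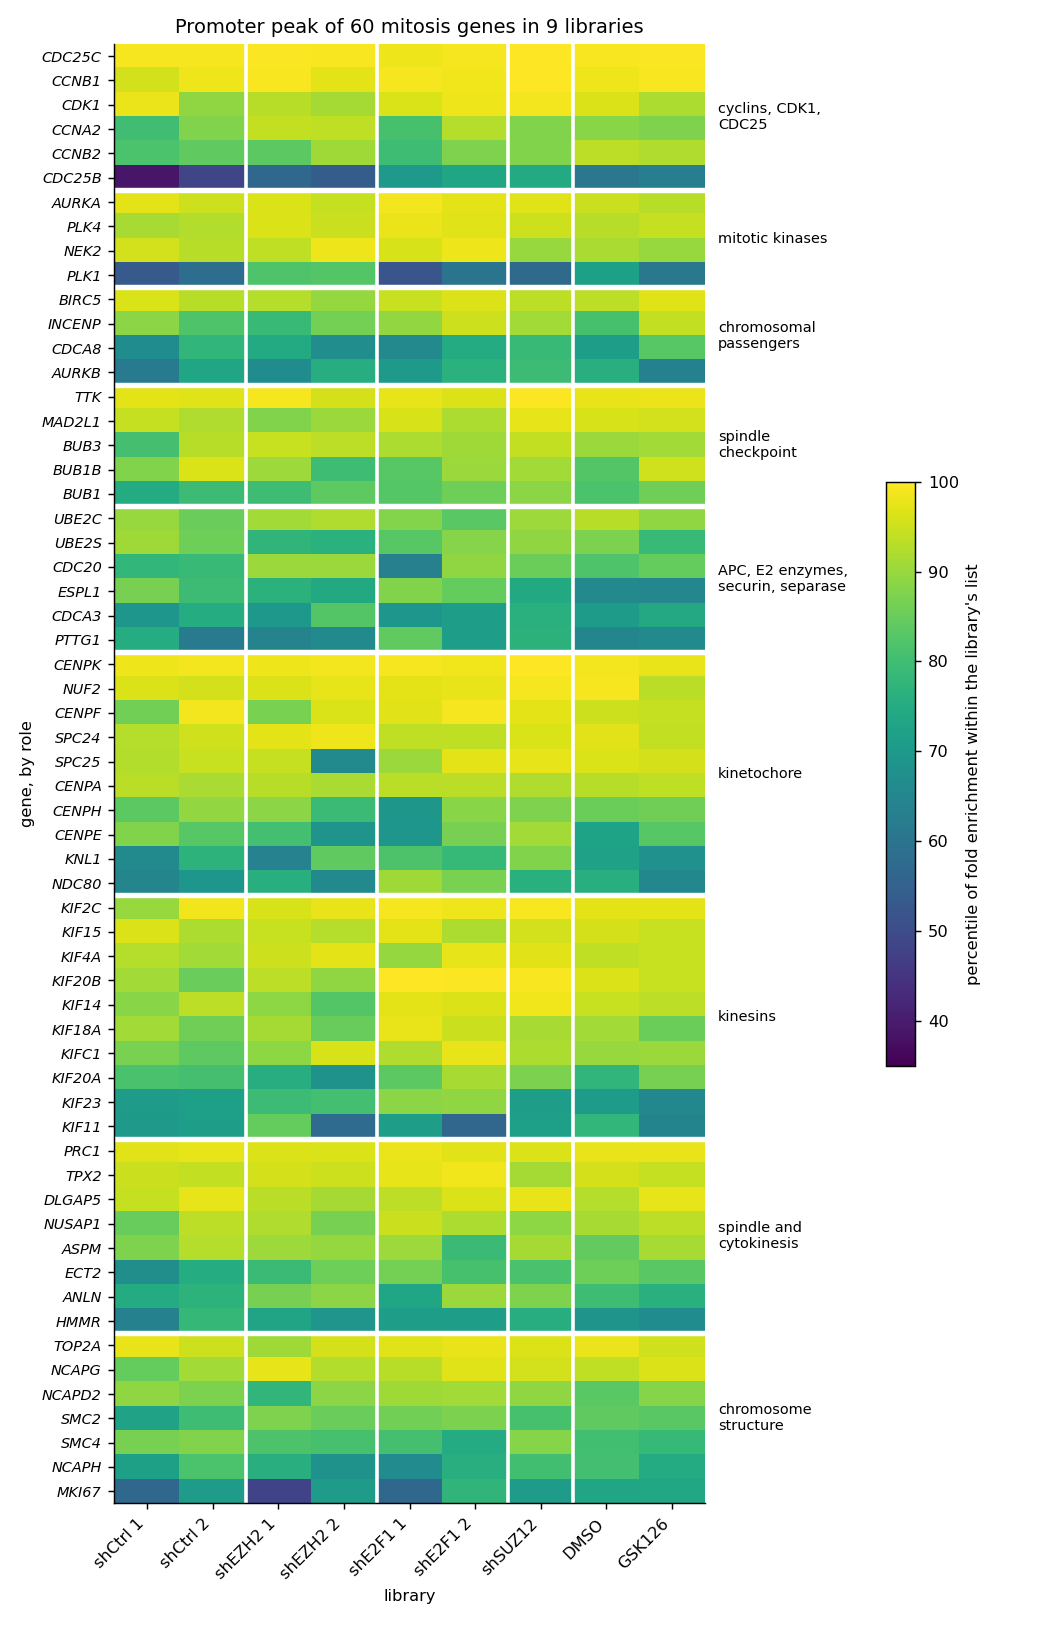
Percentile of fold enrichment of the promoter peak (colour, 35 to 100) for the 60 genes (rows, grouped by role and ordered by their median) in the 9 libraries (columns). CDC25C, CENPK and CCNB1 are near the top of every list, and PLK1, CDC25B and PTTG1 have the lowest medians.

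The drivers of mitotic entry spanned nearly this whole scale. CDC25C, a phosphatase that activates CDK1 in G2, had the highest median percentile of all members, 99.2, and lay between 98.2 and 99.99 in the 9 lists. CCNB1, the cyclin B1 partner of CDK1, stood at 95.5 and 98.3 in the shCtrl libraries, 99.3 and 97.2 in shEZH2, 99.2 and 98.6 in shE2F1, 99.9 in shSUZ12, 98.4 in DMSO and 99.4 in GSK126. CDC25B, the phosphatase that starts CDK1 activation, was near the other end with a median of 60.7. CDK1 itself had a median of 96.3, CCNA2 (cyclin A2) of 87.8 and CCNB2 (cyclin B2) of 87.5.

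Among the mitotic kinases, AURKA, which matures the centrosomes, had a median percentile of 96.2, and PLK4, which starts centriole duplication, of 94.7. NEK2, a kinase of centrosome separation, was at 93.8. PLK1, a kinase needed from mitotic entry to cytokinesis, had the lowest median of the 60 genes, 60.1.

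In the other roles, the medians over genes were 81.7 for the 4 chromosomal passenger genes (AURKB 73.4 to BIRC5 93.6) and 92.1 for the 5 spindle checkpoint genes (BUB1 82.9 to TTK 97.6). The 6 genes grouped under the anaphase-promoting complex, its E2 enzymes, securin and separase (CDC20, CDCA3, UBE2C, UBE2S, PTTG1 and ESPL1) had a median of 80.7. In that last role UBE2C, an E2 enzyme of the complex, was highest at 90.1 and PTTG1, which encodes securin, lowest at 66.0. The PTTG1 values were 75.2 and 61.9 in shCtrl, 64.0 and 66.0 in shEZH2, 84.2 and 71.5 in shE2F1, 76.7 in shSUZ12, 64.9 in DMSO and 66.0 in GSK126, so that its 2 shCtrl libraries lay far apart. The 10 kinetochore genes had a median of 93.8 (NDC80 75.7 to CENPK 98.9, which lay between 97.8 and 99.9 in the 9 lists) and the 10 kinesins of 92.3 (KIF11 71.2 to KIF2C 97.9). The 8 spindle and cytokinesis factors had a median of 91.3 (HMMR 71.3 to PRC1 97.1), and the 7 genes of chromosome structure one of 84.0 (MKI67 71.0 to TOP2A 96.6). Low and high percentiles of fold enrichment thus occurred within nearly every machine of mitosis rather than in 1 of them. Fold enrichment is a ratio to local background, and −log10 p ranked some of these genes otherwise. In DMSO, HMMR was at 93.1 by −log10 p (68.6 by fold enrichment), CDCA8 at 95.6 (71.1) and CDC25B at 85.1 (60.7). PLK1 and ESPL1 stayed lower, at 74.5 (71.8) and 71.3 (65.6).

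The lists themselves differed in length, from 58626 peaks (shEZH2, replicate 2) to 85812 (shE2F1, replicate 2), which moves a percentile taken over the whole list. The most frequent background in tags, a measure of depth, ran from 1.41 to 2.18, with the same pair of libraries at its ends. Of 8 markers of MDA-MB-231 cells, 7 had a promoter peak in all 9 libraries and SPARC in none. The 4 blood cell markers had none in any. Of 8 luminal markers, ERBB3, KRT8, KRT18 and EPCAM had one in all 9, ESR1 in 8, PGR and FOXA1 in 7, and GATA3 in none. The presence of a promoter peak thus set MDA-MB-231 markers apart from luminal ones only in part.

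The comparison of shEZH2 with shCtrl asks whether knockdown of EZH2 changes the openness of mitosis promoters relative to other peaks. Between the groups, 18 of the 60 genes had both shEZH2 percentiles above both shCtrl percentiles and 9 had both below, against 10.6% and 29.7% of 12234 promoters. The median difference over members was 0.32 percentile points, and over all promoters −2.58. Ranked among promoter peaks only, 21 were higher and 6 lower (all promoters 16.2% and 22.3%), and in lists of equal length 23 and 5 (all promoters 23.9% and 14.4%). With −log10 p as the ranked measure, 7 were higher and 15 lower (all promoters 4.15% and 42.2%). Calls among promoters at large were mostly lower, except in lists of equal length, while those among the mitosis genes were mostly higher by the 3 rankings of fold enrichment and mostly lower by −log10 p.

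Because the members are open promoters, the same counts were taken among the 7324 promoters with a mean percentile of at least 70, where 56 members lie. There 16 were higher and 9 lower in shEZH2, against 13.0% and 26.7% of those promoters. None of this passed a test for a single gene. limma, fitted over 12070 promoters with Benjamini-Hochberg adjustment, called 0 promoters in shEZH2 (percent called 0.0 in each direction) and none of the 60, with 972 promoters and 3 members at an unadjusted p under 0.05, and the lowest adjusted p of a member was 0.52. An exact two-sided permutation test of 2 libraries against 2 cannot go below 0.333.

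PLK1 had the largest difference. Its percentile was 53.4 and 58.6 in shCtrl and 82.1 and 82.6 in shEZH2, a difference of 26.4 points (SE 8.12, limma adjusted p = 0.52). In shE2F1 it was 52.1 and 60.1, in shSUZ12 57.4, in DMSO 71.8 and in GSK126 61.0. The shEZH2 values lay above those of the other 7 libraries. By the depth-scaled summit tags described below, its summit was at 98.2% of shCtrl, the highest share of the 60 genes (all promoters 74.0%), and its local background at 66.0% (all promoters 80.4%). Centred on all promoters, its log2 difference in summit tags was 0.44 (SE 0.234, limma adjusted p = 0.892).

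CDC20, the activator of the anaphase-promoting complex, was at 78.1 and 79.1 in shCtrl and 90.1 and 90.3 in shEZH2, a difference of 11.6 points (SE 8.03, limma adjusted p = 0.751). Its shE2F1 libraries disagreed, at 63.2 and 89.3, and shSUZ12 (85.5), DMSO (82.2) and GSK126 (84.6) lay between the shCtrl and shEZH2 values. CCNB1 overlapped between shCtrl and shEZH2 (mean difference 1.34 points, SE 1.53). Its shE2F1 values were both above shCtrl, by 2.00 points in the mean (SE 1.53, limma adjusted p = 0.977), which is less than the gap between its shCtrl libraries.

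The other members that were higher under all 3 rankings of fold enrichment, 18 in all, came from most roles. ANLN, which scaffolds the contractile ring, was at 75.02 and 76.9 in shCtrl and 86.8 and 88.6 in shEZH2. ECT2, the exchange factor that activates RhoA for cytokinesis, was at 67.2 and 75.3 against 79.3 and 85.8, and KIF23, a kinesin of the central spindle, at 70.6 and 71.6 against 79.6 and 80.6. The differences of these 3 genes were 11.7, 11.3 and 8.98 points. The 8 spindle and cytokinesis factors, which include ANLN and ECT2, had 3 members higher and 2 lower, with a median difference of 0.22 points.

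SMC2, a core subunit of condensin, was at 72.5 and 79.9 in shCtrl and 87.5 and 85.0 in shEZH2. CCNA2 was at 80.1 and 87.8 against 94.1 and 93.8. CDC25B was at 38.9 and 48.7 against 56.8 and 54.3. The differences of these 3 genes were 10.1, 10.0 and 11.8 points, and those of the remaining genes (NCAPG, BUB3, KIFC1, BUB1, KIF4A, UBE2C, SPC24, PLK4, TPX2 and CDC25C) were smaller.

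Fewer members were lower in shEZH2 under all 3 rankings, namely UBE2S, KIF20A, SMC4 and DLGAP5. UBE2S, the E2 enzyme that extends ubiquitin chains for the anaphase-promoting complex, was at 90.7 and 85.7 in shCtrl and 77.6 and 76.6 in shEZH2, 11.1 points lower in the mean. SMC4, the partner of SMC2 in condensin, was at 86.6 and 87.6 against 81.9 and 81.2, so that by percentile the core subunits of condensin lay on opposite sides. DLGAP5, a microtubule-binding spindle factor, was at 94.2 and 97.5 against 93.4 and 91.1. By the depth-scaled summit tags described below, SMC2 and SMC4 were both lower in shEZH2, with log2 differences of −0.15 and −0.45. Centred on all promoters, these differences were 0.32 and 0.02. The SMC4 promoter is shared with IFT80.

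**Figure D3:**
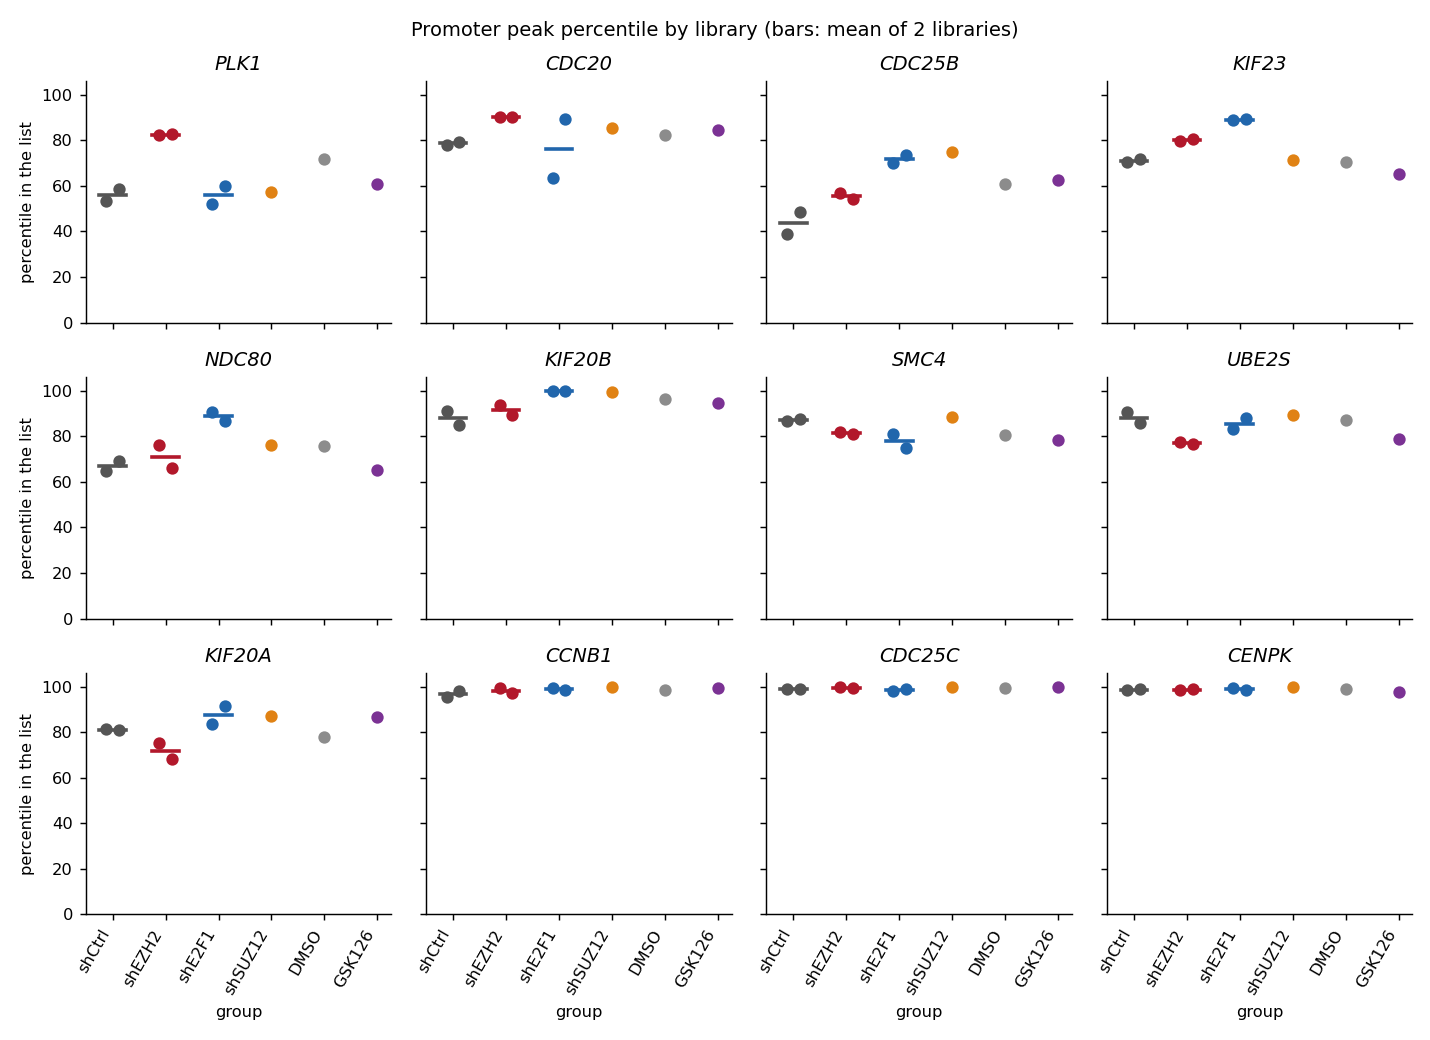
Percentile of the promoter peak within its list (y axis, 0 to 100) by group (x axis) for 12 genes, with 1 point per library and a bar at the mean of 2 libraries. PLK1 is higher in both shEZH2 libraries than in the other 7, KIF23, NDC80, CDC25B and KIF20B are higher in both shE2F1 libraries than in shCtrl, and CCNB1, CDC25C and CENPK are near 100 in all.

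The comparison of shE2F1 with shCtrl, which uses the same 2 shCtrl libraries, gave 21 members above both controls in both shE2F1 libraries and 2 below, against 19.2% and 17.0% of 12516 promoters. The median difference was 1.96 points over members and −0.07 over all promoters. In depth-scaled summit tags, described further on, the members' median was 71.9% of shCtrl, as over all promoters. Their local background, to which fold enrichment is a ratio, was at 72.7% (all promoters 78.7%). Among promoter peaks only, 17 were higher and 2 lower (all promoters 16.7% and 20.5%), in lists of equal length 22 and 2 (22.3% and 15.4%), and by −log10 p 13 and 9 (12.4% and 22.8%). Among the promoters with a mean percentile of at least 70, 20 were higher and 2 lower (22.0% and 14.6%). limma called 0 of the 12070 promoters and 0 members after Benjamini-Hochberg adjustment (percent called 0.0), with 509 promoters and 9 members at an unadjusted p under 0.05, all 9 higher, and a lowest adjusted p among members of 0.977.

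Kinesins, the motors that build and slide the spindle, made up 6 of these 21, and none of the 10 was lower, beside the 19.2% and 17.0% of all promoters. Their median difference was 6.23 points, with a range from −6.88 (KIF11, with overlap) to 17.9 (KIF23). CENPE, a kinesin that is grouped with the kinetochore here, had a difference of −7.54 points, also with overlap. By depth-scaled summit tags, described further on, 9 of the 10 kinesins were lower in shE2F1 and 0 higher, with a median log2 difference of −0.43 (all promoters −0.47). The kinesins were not tested against the other roles. KIF20B, a kinesin of late cytokinesis, was at 90.9 and 85.0 in shCtrl and 99.8 and 99.7 in shE2F1, and it was also high in shSUZ12 (99.4) and DMSO (96.6). Its difference of 11.8 points (SE 2.75) had the smallest unadjusted p of the members, and an adjusted p of 0.977 by limma.

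KIF23 was at 70.6 and 71.6 in shCtrl and 88.8 and 89.1 in shE2F1, with shSUZ12, DMSO and GSK126 between 65.2 and 71.4. KIFC1, a minus-end motor that clusters centrosomes, was at 87.0 and 84.0 against 92.3 and 97.8. KIF14, KIF18A and KIF20A were the others, with smaller differences than these 3. By depth-scaled summit tags, the summit of KIF23 in shE2F1 was at 84.4% of shCtrl and its local background at 68.4%.

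KIF20A, which brings the passenger complex to the central spindle, lay on opposite sides of shCtrl in the knockdowns by percentile. It was at 81.3 and 80.9 in shCtrl, 75.4 and 68.3 in shEZH2, and 83.7 and 91.4 in shE2F1. By depth-scaled summit tags it was lower than shCtrl in both knockdowns, at 66.8% in shEZH2 and 79.3% in shE2F1, without overlap. Its promoter is shared with BRD8, and its summits spread over 434 bp between libraries.

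In the kinetochore, NDC80, which grips microtubule ends, was at 64.7 and 69.0 in shCtrl and 90.6 and 86.9 in shE2F1, a difference of 21.9 points (SE 6.96). In shEZH2 it was at 75.9 and 65.9. KNL1, which recruits the checkpoint kinases, was at 66.0 and 77.1 in shCtrl against 82.0 and 78.5. NUF2, the partner of NDC80, was near the top throughout, between 93.2 and 99.0. By depth-scaled summit tags, the summit of NDC80 in shE2F1 was at 93.3% of shCtrl and its local background at 71.6%.

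CDC25B had the largest difference of the shE2F1 comparison, with 70.1 and 73.5 against 38.9 and 48.7 in shCtrl, or 28.0 points (SE 8.60, limma adjusted p = 0.977). The 2 shCtrl values were the lowest of its 9 libraries, DMSO being at 60.7, so the difference depends on that control. ECT2 was at 86.3 and 81.2, and SMC2 at 86.1 and 87.3, in shE2F1, and both were also higher than shCtrl in shEZH2. In percentile, none of these 3 genes overlapped between shE2F1 and shCtrl. By depth-scaled summit tags, the summit of CDC25B in shE2F1 was at 90.7% of shCtrl (all promoters 71.9%). Its local background was at 67.9% (all promoters 78.7%).

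SMC4 and CDC25C were the only members lower in shE2F1 under all 3 rankings. SMC4 was at 80.9 and 75.02 against 86.6 and 87.6 in shCtrl. CDC25C was at 98.2 and 99.1 against 99.1 and 99.1, a difference of 0.46 points that is within the spread of the shE2F1 libraries, and it changed sign by −log10 p.

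Set directly against each other, 24 members had both shEZH2 percentiles below both shE2F1 percentiles and 8 had both above, against 28.7% and 9.14% of 12090 promoters. The 24 lower included 6 of the 10 kinesins, whose median difference was −5.38 points, but by depth-scaled summit tags 1 kinesin was lower and 1 higher, with a median log2 difference of 0.02. Among promoter peaks only, the counts were 15 and 11 (all promoters 19.7% and 16.6%), and in lists of equal length 17 and 12 (17.6% and 18.5%). By −log10 p they were 18 and 4 (29.6% and 7.2%). From the whole list to depth-scaled summit tags, the measure described in the next paragraphs, the direction turned among members and all promoters alike. With these tags 4 members were lower and 12 higher (15.0% and 19.0%), and after centring on all promoters 8 were lower and 19 higher (17.7% and 21.6%).

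**Figure D4:**
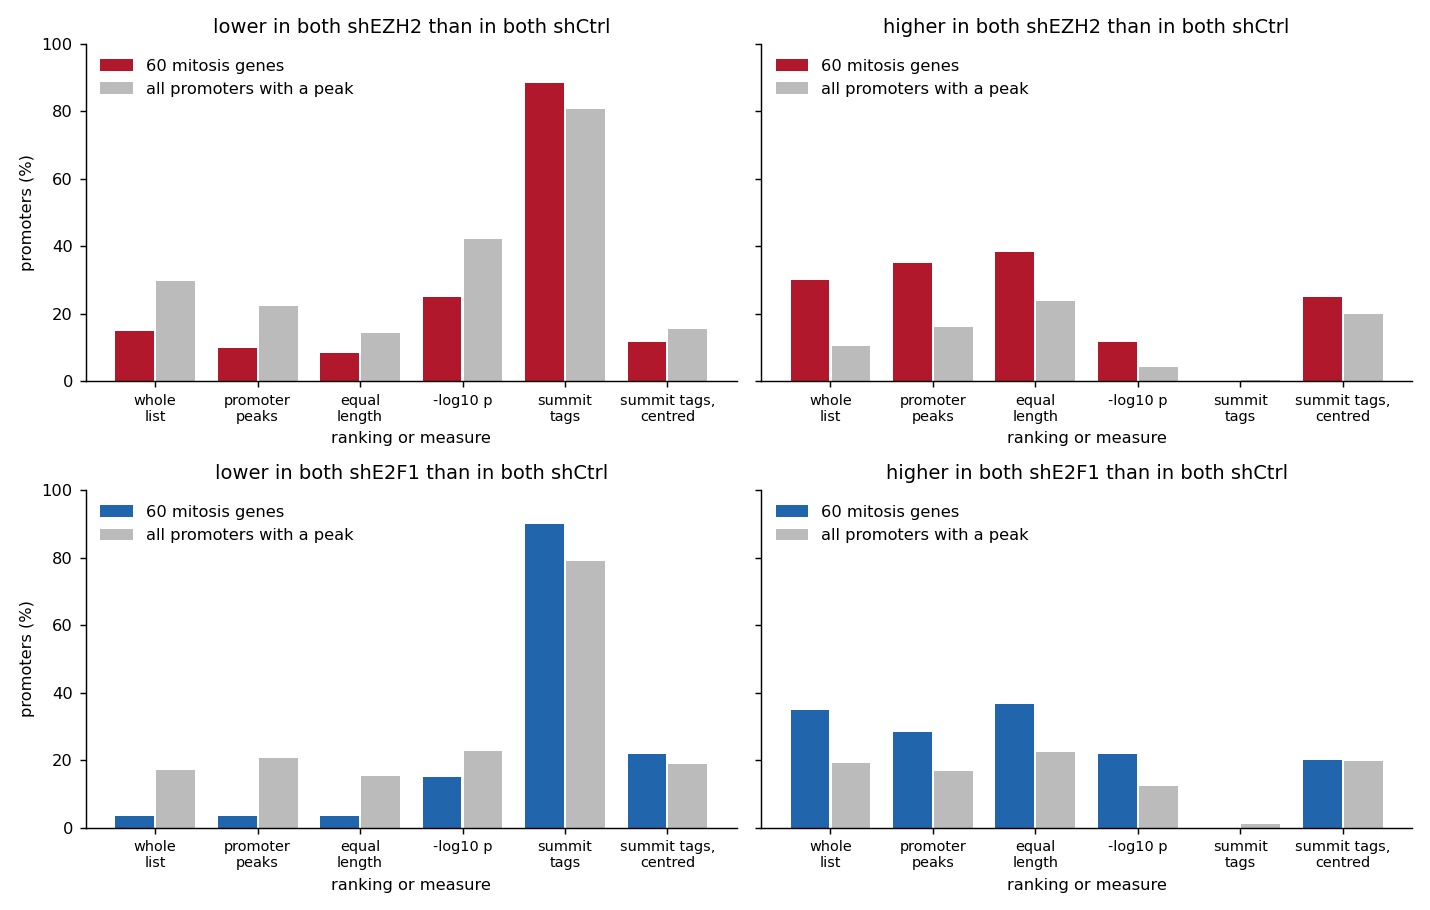
Percent of the 60 mitosis genes (coloured bars) and of all promoters (grey bars) that lie below (left) or above (right) both shCtrl libraries in both libraries of shEZH2 (top) or shE2F1 (bottom), by ranking or measure. In the 4 rankings the bars of the mitosis genes are shorter on the left and longer on the right than those of all promoters, and by depth-scaled summit tags most of both sets lie on the left.

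A percentile ranks a peak among the other peaks of its library and does not show a shift that all peaks share. The number of tags at each summit was therefore recovered from the fold enrichment and −log10 p of the peak and divided by the most frequent background of its library, a depth-scaled value chosen after the data were seen. The median over the 60 genes was 67.9 and 74.3 in shCtrl, 51.8 and 52.8 in shEZH2, 48.3 and 55.1 in shE2F1, 75.8 in shSUZ12, 76.0 in DMSO and 77.1 in GSK126. The 4 libraries of EZH2 and E2F1 knockdown were below the other 5 without overlap.

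All promoters did the same. Their medians were 54.2 and 56.7 in shCtrl, between 40.4 and 40.5 in shEZH2, 37.3 and 42.7 in shE2F1, and between 58.8 and 63.7 in the other 3 libraries. The ratio of the members' median to that of all promoters stayed between 1.21 and 1.31 in the 9 libraries. The scaled value rises with the share of a library's tags that fall in peaks, so a difference in that share and a difference at the promoters cannot be told apart.

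**Figure D5:**
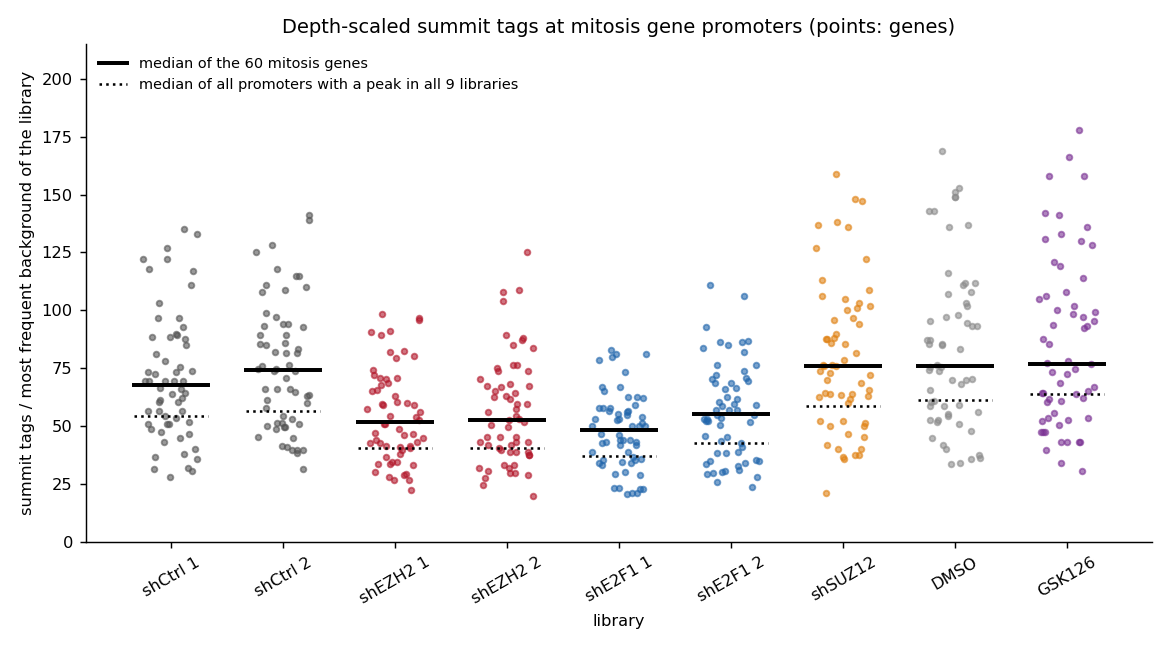
Depth-scaled summit tags (y axis, tags at the summit divided by the most frequent background of the library) of the 60 mitosis genes (points) in the 9 libraries (x axis), with the median of the 60 genes (solid line) and of all promoters with a peak in all 9 libraries (dotted line). Both medians are lower in shEZH2 and shE2F1 than in the other libraries.

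By this measure 53 members had both shEZH2 values below both shCtrl values and 0 above (all promoters 80.6% and 0.531%), and 54 were lower and 0 higher in shE2F1 (78.9% and 1.06%). The members' median was 75.7% of shCtrl in shEZH2 and 71.9% in shE2F1, and that of all promoters 74.0% and 71.9%. For the local background, the members' medians were 78.5% and 72.7%, and those of all promoters 80.4% and 78.7%. limma with Benjamini-Hochberg adjustment called 19 members lower in shEZH2 (33.6% of 12070 promoters) and 32 in shE2F1 (47.2%), and 0 members higher in each (0.058% and 0.0497%). These counts depended on single libraries, falling when some were left out and rising without others. The members' median log2 difference in shEZH2 (−0.401) ran from −0.453 to −0.346 without 1 library, and in shE2F1 (−0.475) from −0.605 to −0.373. Centred on the median of all promoters in each library, limma called 0 members in each knockdown (0.00829% of promoters lower in each). At an unadjusted p under 0.05 by limma, 2 members were higher in shEZH2, and 1 was higher and 3 lower in shE2F1. The members were thus lower by about as much as the median promoter.

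CENPE, the kinetochore kinesin that congresses chromosomes, fell furthest of the 60 in both knockdowns. Its depth-scaled summit tags were 50.4 ± 0.593 (SD, n = 2) in shCtrl, 30.3 and 29.8 in shEZH2 and 21.3 and 30.7 in shE2F1, or 59.5% and 51.6% of shCtrl (limma adjusted p = 0.0149 and 0.00145). CENPH, a subunit of the inner kinetochore, followed with log2 differences of −0.71 and −0.89 (adjusted p = 0.0113 and 0.00144). After centring, the adjusted p of CENPE was 0.917 and 0.661.

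CDC20 was at 103 and 92.8 in shCtrl and at 79.5 and 85.1 in shEZH2, and its shE2F1 libraries averaged 66.1 ± 22.7 (SD, n = 2). limma called it lower in shE2F1 alone (adjusted p = 0.00939, shEZH2 0.251), and the difference between the knockdowns was not tested. After centring on all promoters, its log2 difference in shE2F1 was −0.14 (limma adjusted p = 0.924). CCNB1 was at 81.0 and 81.7 in shCtrl, 80.5 and 56.0 in shEZH2 and 66.7 and 56.9 in shE2F1, with adjusted p of 0.217 and 0.0738. KIF20B was the only member whose mean in shE2F1 was above shCtrl, at 107%, with 52.5 ± 3.57 against 48.9 ± 3.59 (SD, n = 2). Its percentile and its scaled tags thus moved the same way there, with overlap in the latter.

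Role by role, the median log2 difference of scaled tags in shEZH2 ran from −0.32 in the cyclins, CDK1 and CDC25 genes to −0.59 in the kinetochore, and in shE2F1 from −0.41 to −0.56 in the spindle checkpoint. Genes with and without a CHR had medians of 74.7% and 80.8% of shCtrl in shEZH2 and 71.5% and 74.3% in shE2F1. With and without 2 or more CCAAT boxes, the medians were 74.0% and 76.1% in shEZH2 and 72.5% and 71.8% in shE2F1. These differences between classes were not tested.

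The single shSUZ12 library, which lacks a replicate check, was set beside the same shCtrl libraries. A gene above 90 in the controls cannot rise by more than 10 points. In the whole lists, 32 of the 60 members had a median of 90 or more, against 26.4% of promoters with a peak in all 9. The shares called higher are therefore not compared on equal terms. Of the 60 genes, 7 were higher by more than 10 percentile points and outside both shCtrl values and 0 were lower, against 17.2% and 5.19% of 12868 promoters, with a median difference of 3.60 points (all promoters 2.73). Among promoter peaks only, 7 were higher and 3 lower (9.05% and 10.3%), in lists of equal length 15 and 0 (30.1% and 3.51%), and by −log10 p 1 and 0 (8.98% and 4.45%). CDC25B was at 74.7, 30.9 points above the shCtrl mean, and KNL1 at 87.6, 16.1 points above it. ANLN at 87.5 and KIF20B at 99.4 were 11.6 and 11.4 points higher, and BUB1 was the fifth gene past the limit under all 3 rankings. By depth-scaled summit tags, 33 members were above both shCtrl libraries and 11 below both, against 47.1% and 23.2% of promoters.

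GSK126 was compared with DMSO, with 1 library each. The same ceiling limits the percentile counts of higher genes here. Past 10 points, 4 members were lower and 4 higher, against 15.4% and 6.87% of 12823 promoters, and the median difference was −0.42 points (all promoters −0.76). Among promoter peaks only, 4 were lower and 7 higher (12.4% and 11.5%), in lists of equal length 2 and 6 (11.9% and 13.4%), and by −log10 p 3 and 1 (12.9% and 3.9%). By depth-scaled summit tags, 27 were lower and 33 higher in GSK126 than in DMSO (38.5% and 61.5%). INCENP, the scaffold of the passenger complex, was at 81.0 in DMSO and 94.0 in GSK126, and CDCA8 (borealin), of the same complex, at 71.1 and 83.1. AURKB, the kinase of that complex, went the other way, from 75.8 to 63.6.

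BUB1B, which encodes the checkpoint protein BUBR1, was at 82.7 in DMSO and 95.4 in GSK126. CENPE was at 72.7 and 83.1, and KIF11, the motor that separates the spindle poles, at 78.1 and 64.3. PLK1 and NDC80 were lower past 10 points in the whole list but not under all 3 rankings. In the 2 shCtrl libraries, BUB1B was at 87.8 and 96.3 and AURKB at 62.1 and 73.4, so that gaps of this order also occurred between libraries of 1 group.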

How the data were processed

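ATAC-seq was measured in 9 libraries of MDA-MB-231 cells, grouped by their labels. Reads were aligned with Bowtie2 to hg38 (GRCh38), per the submitters' processing notes, and shifted for the Tn5 cutting position. Peaks were called per library, and the peak caller is not given in the sources used here. Each deposited list holds a score (the whole part of 10 times −log10 q), the fold enrichment as a ratio to local background, and −log10 p and −log10 q values, by the authors. All 24 chromosomes of the lists were within GRCh38.

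For each of 20033 protein-coding genes (GENCODE v44, Ensembl canonical transcript), the strongest peak within 1000 bp of the TSS was ranked by fold enrichment within its list (main), among promoter peaks, and among the top 58626 peaks of each list. The members and lists were chosen with earlier results of these data known. A group difference was counted where 2 libraries did not overlap 2 others, beside the same share of all promoters, or, with 1 library, past 10 points. limma 3.58.1 (R 4.3.3, intensity trend) was fitted to percentiles of promoters with a peak in all 6 shCtrl, shEZH2 and shE2F1 libraries, at an adjusted p of 0.05. Summit tags were solved from fold enrichment and Poisson p (at least 99.65% of promoter peaks in each library to within 0.01 in −log10 p) and divided by the most frequent background. They are values recovered from the lists. The steps were tested on simulated data with Python 3.11.15 and scipy 1.17.1.

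The genes described by their libraries are CCNB1, CDC20 and PLK1, the 3 genes with the highest and lowest medians, and the genes that differed under all 3 rankings, at most 8 a direction (4 where a group has 1 library). Other genes are named as the extremes of a role or in a count, and CENPH, NUF2, CDK1, CCNB2, PLK4 and NEK2 were chosen after their values were seen. Read counts per region were not used here, and depth in reads is unknown. Alternatives were other rankings, a 500 bp window, a −log10 q of at least 5, quantile normalisation, a replicate block and leaving out each library.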

Additional observations from a re-analysis of the deposited data

How the results depend on the processing

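Of 113 values that answer a comparison under an alternative, 79 stayed within 1.5 times or the spread of the main value. Members lower in both shEZH2 libraries (9) were 5 in lists of equal length, 15 by −log10 p, 53 by depth-scaled summit tags and 14 to 21 without 1 library. Members higher (18) were 7, 0 and 24 to 30 by −log10 p, scaled tags and without 1 library. For shE2F1, members lower (2) were 9, 54 and 6 to 17, and members higher (21) 13, 0 and 27 to 33 under the same settings. By centred scaled tags they were 13 and 12. Leaving out a library makes non-overlap easier by construction. limma called 0 members on percentiles under every ranking, window and normalisation, and without each library, and 19 and 32 on scaled tags.

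The median difference of members in shEZH2 (0.32) was 1.82 among promoter peaks, 2.82 in lists of equal length, −1.35 by −log10 p and 0.302 to 0.836 without 1 library. In shE2F1 (1.96) it was 0.0242 by −log10 p and 1.08 to 3.34 without 1 library. In shSUZ12 (3.60) it was 2.15, 6.42 and 0.467 by promoter peaks, equal length and −log10 p, and 1.77 to 3.80 without 1 shCtrl library. GSK126 against shCtrl gave 1.55. The difference of CDC25C in shE2F1 turned to 0.0212 by −log10 p. The causes were not tested.

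Same-numbered replicates did not deviate together (correlations 0.054, 0.0588 and −0.0239 over 12070 promoters), so the numbers were not taken to pair libraries. With a replicate block, limma called 0 members in each knockdown on percentiles, and 26 and 39 on scaled tags. The lists give no read depth, and 1 or 2 libraries a group limit every comparison.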

Other observations

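The same counts were taken for genes of mitosis outside the 60. In the second list of 50, which holds WEE1 and PKMYT1, the kinases that hold CDK1 inactive, and further subunits of the kinetochore, condensin II and the anaphase-promoting complex, 9 had both shEZH2 percentiles above both shCtrl percentiles and 12 had both below (18.0% and 24.0%, all promoters 10.6% and 29.7%), and in shE2F1 the counts were 13 and 5 (26.0% and 10.0%, all promoters 19.2% and 17.0%). Their median differences were −0.29 and 0.24 points. By depth-scaled summit tags, 45 and 46 of the 50 were lower in shEZH2 and shE2F1 (all promoters 80.6% and 78.9%). Centred on all promoters, 18 were lower and 2 higher in shE2F1, against 19.0% and 19.7% of 12516 promoters, while among the 60 genes 13 were lower and 12 higher.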
